A study of Homo sapiens with 32 samples.

Results

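The loci of MTSS1 and COBL were examined in HNF4α chromatin immunoprecipitation sequencing (ChIP-seq) of human pancreatic ductal adenocarcinoma cell lines. MTSS1 and COBL were chosen by the presence of peaks: each holds a site bound in every list of the P2 isoform α8 and in no list of the P1 isoform α2. The isoform contrast is therefore given as a description, without a test. In each of 18 peak lists, a peak belonged to a locus when its summit lay within 50 kb of the gene's span. These rules gave 138 of the 337294 peaks. After overlapping peaks of different lists were merged, they formed 34 sites among 78729 regions in all, 14 at MTSS1 and 20 at COBL.

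Panc10.05 cells carried doxycycline-inducible P1-α2 (25 ng/mL doxycycline) or P2-α8 (12.5 ng/mL), so isoform and dose differed together in that line. BxPC3 cells carried the same isoforms and received 500 ng/mL for both. AsPC1 cells, with no induction, carried CRISPR interference, which silences transcription through a guide RNA: a control guide (sgNC), a guide against the P1 promoter (sgP1) or a guide against the P2 promoter (sgP2). Every genotype was precipitated with a pan-HNF4α antibody, which binds all isoforms, and AsPC1 sgNC and sgP2 also with an antibody to P1 isoforms. This gave 9 groups of 2 libraries. The labels do not say whether replicates came from separate cultures, so p-values measure only the spread between these libraries. Isoforms in Panc10.05 and BxPC3 were forced from a doxycycline-driven construct, and the labels do not say whether the lines were clones. The titles of the BxPC3 α8 libraries name P1, while their genotype field gives P2-α8, which was followed here, and the peak names inside those lists carry the code a8.

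HNF4α is a nuclear receptor that binds DNA as a homodimer and drives epithelial programmes of liver, gut and pancreas. Its P1 and P2 promoters give proteins that share the DNA-binding domain and differ at the N-terminus, where P2 forms lack the activation function of P1 forms. MTSS1 (missing in metastasis) is an I-BAR domain protein that bends membranes and binds actin. COBL (cordon-bleu) nucleates actin filaments through WH2 repeats and takes part in building microvilli of the intestinal brush border. Both genes lie on the minus strand, so transcription starts at the end with the higher coordinate.

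The lists held 24828 to 41808 peaks for Panc10.05 and for BxPC3 P1-α2, 12681 and 14666 for BxPC3 P2-α8, 11686 to 24295 for AsPC1 with the pan-HNF4α antibody, 3916 and 5200 for the P1 antibody in sgP2, and 697 and 260 for the P1 antibody in sgNC. Peaks reached down to a −log10 q of about 8 in the induced lines and about 2 in AsPC1. Read depth is unknown. A site absent from a list therefore had no peak past that list's threshold, which does not show that HNF4α was absent there. Within a list, peaks are compared by fold enrichment, a linear ratio given by the authors, and by its percentile, where 100 is the strongest peak. Lists differ in length, so percentiles of different lists are set side by side as descriptions and show no change in binding.

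Sequence could be read from RefSeq (GRCh38.p14) for the shared COBL start site alone, because neither MTSS1 nor COBL matched an entry in the promoter table while LOC124901633, a long noncoding RNA gene that starts beside COBL on the plus strand, did. The stretch chr7:51316810-51317033 runs from the first base outside COBL to base 50 of LOC124901633. It is shown because peaks of 11 lists overlap it and peaks of 9 cover it whole, and capitals mark the 21 bases centred on base 51316960, the summit of a peak in both sgP2 lists of the P1 antibody.
COBL-LOC124901633: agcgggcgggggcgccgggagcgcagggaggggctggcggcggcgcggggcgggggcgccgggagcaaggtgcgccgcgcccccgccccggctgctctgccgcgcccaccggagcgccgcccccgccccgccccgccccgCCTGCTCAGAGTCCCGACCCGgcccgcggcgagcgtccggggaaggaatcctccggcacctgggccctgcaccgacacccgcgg
Its 224 bases were 84.8% G or C. The letters CAAAGTCCA and CAAAGGTCA, forms of the HNF4 recognition sequence searched on both strands, had 0 matches in it. Of 35116 RefSeq promoters of 300 bases, 0.384% held the first and 0.407% the second.

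The site that marks MTSS1 lies inside the gene (hg38 chr8:124630863-124631659, gene span 124550784 to 124728473), 97.2 kb from the end where transcription starts. Whether it falls in an exon or an intron was not analysed here. Panc10.05 P2-α8 had fold enrichments of 39.5 and 39.5 there, at percentiles 98.0 and 98.7, which are ranks 764 of 39111 and 455 of 33646. In BxPC3 P2-α8 the fold enrichments were 11.6 and 9.80, at percentiles 65.9 and 66.1. No other list had a peak there, and the 4 summits fell within 33 bp of each other. The nearest peak of the P1-α2 lists was 92.3 and 92.2 kb away in Panc10.05 and 24.6 kb away in each BxPC3 list.

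The site that marks COBL lies inside that gene (chr7:51081178-51081699, gene span 51016212 to 51316809), 235 kb from the start of transcription. Its percentiles were 54.9 and 41.0 in Panc10.05 P2-α8, with fold enrichments of 12.9 and 10.5. In BxPC3 P2-α8 they were 69.3 and 58.4, with fold enrichments of 11.9 and 9.15. This was a peak of middling strength in all 4 lists, unlike the MTSS1 site in Panc10.05. The 4 summits fell within 92 bp of each other. In the P1-α2 lists the nearest peak lay 35.6 and 59.5 kb away in Panc10.05 and 21.6 and 21.5 kb away in BxPC3.

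No region other than these 2 met the same rule. Of the 68486 regions with a peak in Panc10.05 or BxPC3, 2 were in all 4 P2-α8 lists and in none of the 4 P1-α2 lists, 0.00292%. They made up 0.0313% of the 6391 regions in all 4 P2-α8 lists. Of 20037 protein-coding genes, 0.00998% had such a region within 50 kb, and of genes of at least 150 kb, 0.0979%. These are the values that chose the genes. The reverse pattern, in all 4 P1-α2 lists and no P2-α8 list, was met by 363 regions (0.53%), and by 0 of the 34 sites. The number of such regions moved with the settings. With the lists of each line cut to equal length by fold enrichment, 35 regions met the rule. Without BxPC3 P2-α8 replicate 1 they were 40, and without BxPC3 P2-α8 replicate 2 they were 14. Leaving out P1-α2 libraries gave 9 without BxPC3 replicate 1, 6 without BxPC3 replicate 2 and 5 without Panc10.05 replicate 2, and leaving out Panc10.05 P2-α8 replicate 2 gave 6. The MTSS1 and COBL sites met the rule at equal length. Omitting a library cannot remove a site from this rule, so those settings say nothing about the sites.

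**Figure D1:**
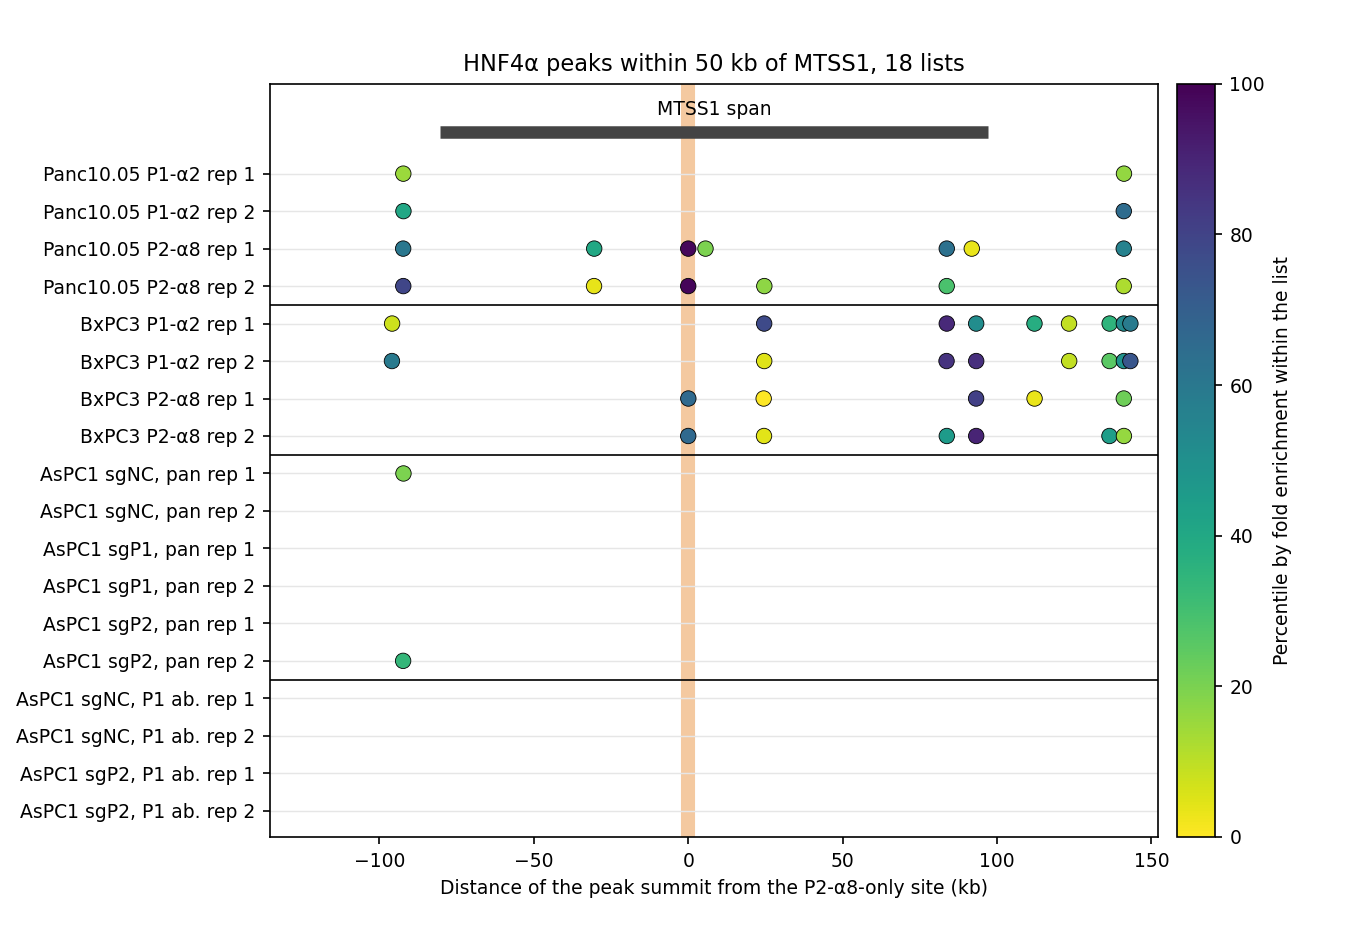
Peaks within 50 kb of MTSS1 in 18 lists: each point is a peak summit, placed by its distance in kb from the P2-α8-only site (shaded), and coloured by its percentile of fold enrichment within its list; the bar is the gene span. The shaded site has points in the 4 P2-α8 rows alone, and both Panc10.05 P1-α2 rows have 0 points inside the span, a pattern whose share over all genes was not computed.

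Around the MTSS1 site, the neighbours followed other patterns. In Panc10.05, the P1-α2 lists held 2 and 2 peaks at the locus and 0 and 0 inside the gene, and the P2-α8 lists held 7 and 6 at the locus with 5 and 4 inside. Each P2-α8 count includes the marking site that chose the gene. Within 50 kb, 27.1% of protein-coding genes had more peaks in both P2-α8 lists than in both P1-α2 lists. No such share was computed for peaks inside genes. The marking site was the strongest of them in both P2-α8 lists, 2.73 and 2.26 times the fold enrichment of the next. Inside the gene, 2 further sites were found in both Panc10.05 P2-α8 lists and neither P1-α2 list. At chr8:124600516-124600917 the percentiles were 40.2 and 3.54, and that site had no peak in any other list. The second, chr8:124714513-124715184 (63.2 and 28.7), lies 13.5 kb from the start of transcription, and in BxPC3 it was present in both P1-α2 lists, at 88.6 and 85.3, and in P2-α8 replicate 2 at 45.3. The P2-α8-only pattern of called peaks at this second site was thus found in Panc10.05 and not in BxPC3.

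In BxPC3 the MTSS1 locus carried 9 and 8 peaks with P1-α2 and 5 and 6 with P2-α8, and 67.4% of protein-coding genes also had fewer with P2-α8. The marking site ranked second among the BxPC3 P2-α8 peaks, at 0.839 and 0.717 times the fold enrichment of the first. That first site, chr8:124724218-124724694, lies 3.98 kb inside the gene from the start of transcription. It was present in both P1-α2 lists, at percentiles 51.2 and 86.6, and in both P2-α8 lists, at 80.9 and 90.1, and had no peak in Panc10.05 or AsPC1. A site of 8 lists, chr8:124772059-124772576, lies 43.8 kb before the gene and was the sole MTSS1 site found in every induced list, at percentiles from 12.1 to 64.8. Between the P1-α2 and P2-α8 lists, its percentiles overlapped in Panc10.05 and did not in BxPC3, where P1-α2 had 52.7 and 49.1 and P2-α8 had 21.9 and 15.9. The share of all regions with percentiles separated in this way was not computed.

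**Figure D2:**
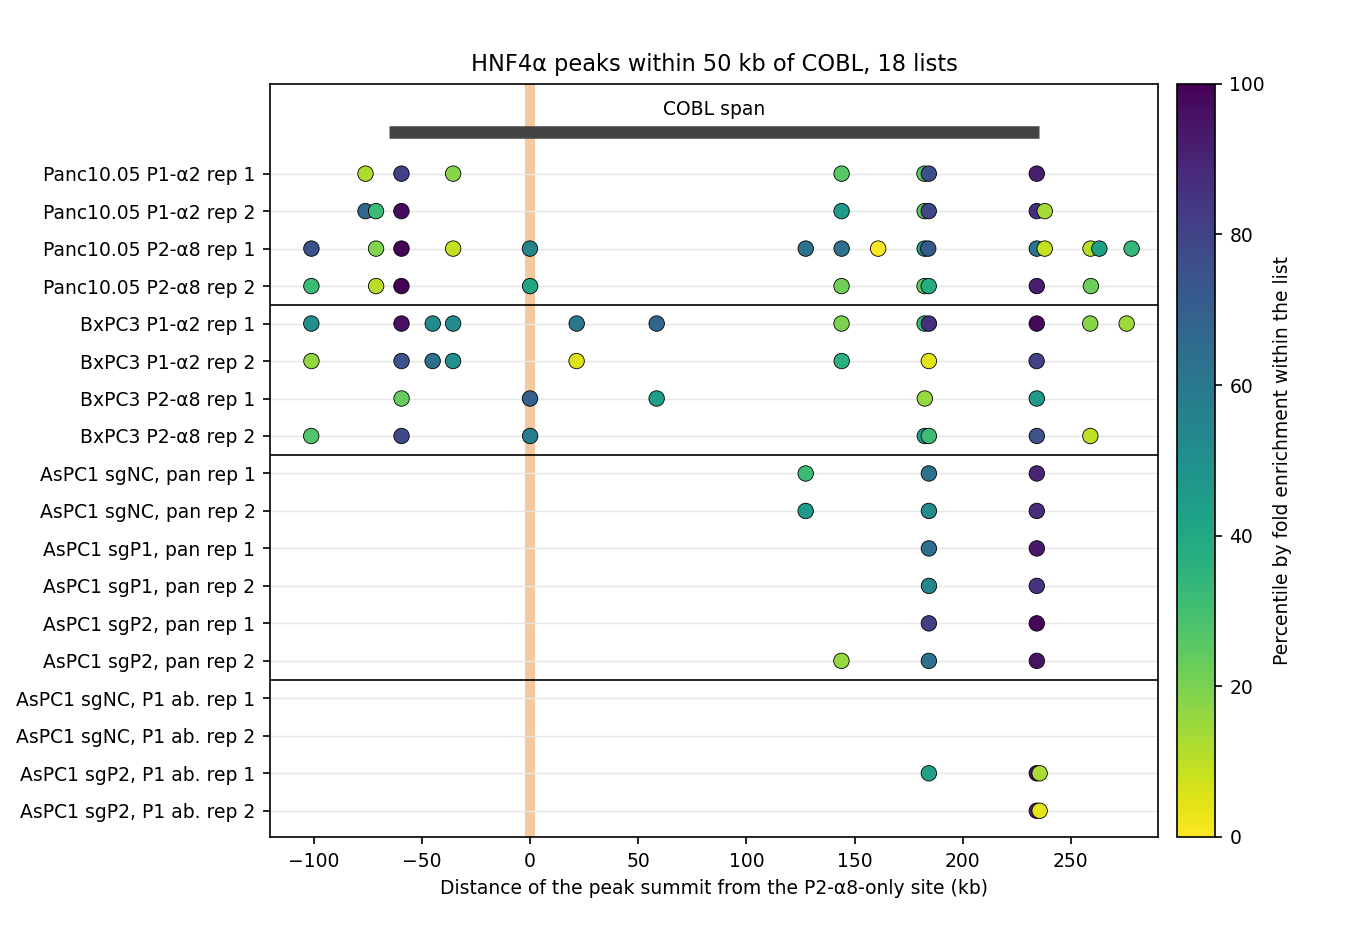
Peaks within 50 kb of COBL in 18 lists, drawn in the same way: distance in kb from the P2-α8-only site (shaded) against list, coloured by percentile. The shaded site has points in the 4 P2-α8 rows alone, while the sites near both ends of the span have a point in all 8 induced rows.

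At COBL, the strongest peak of each Panc10.05 list was at a site that all 4 lists of that line held. Near the end of the gene where transcription stops, chr7:51021470-51022727 was in all 8 induced lists. Its percentiles were 80.6 and 97.2 (Panc10.05 P1-α2), 98.8 and 99.4 (Panc10.05 P2-α8), 95.7 and 74.9 (BxPC3 P1-α2), and 23.5 and 78.6 (BxPC3 P2-α8). It was the strongest COBL peak in both Panc10.05 P2-α8 lists, where the marking site reached 0.292 and 0.228 times its fold enrichment. At the start of transcription, chr7:51315284-51317499 was in 16 of 18 lists, with main summits close to 1.16 kb inside the gene. There the percentiles were 91.5 and 86.9 in Panc10.05 P1-α2, 61.7 and 92.2 in Panc10.05 P2-α8, 97.7 and 80.6 in BxPC3 P1-α2, and 46.0 and 74.4 in BxPC3 P2-α8. Isoform groups overlapped at this site in Panc10.05, and in BxPC3 both P1-α2 values lay above both P2-α8 values. No share of all regions was computed for this separation.

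Another site, chr7:51265191-51266008, lies 51.0 kb into the gene. It was in 7 of the 8 induced lists, missing from BxPC3 P2-α8 replicate 1, with percentiles from 4.07 to 86.4. In BxPC3 P2-α8, the marking site was the strongest COBL peak of replicate 1, at 1.23 times the fold enrichment of the next, and ranked 3 of 7 in replicate 2.

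**Figure D3:**
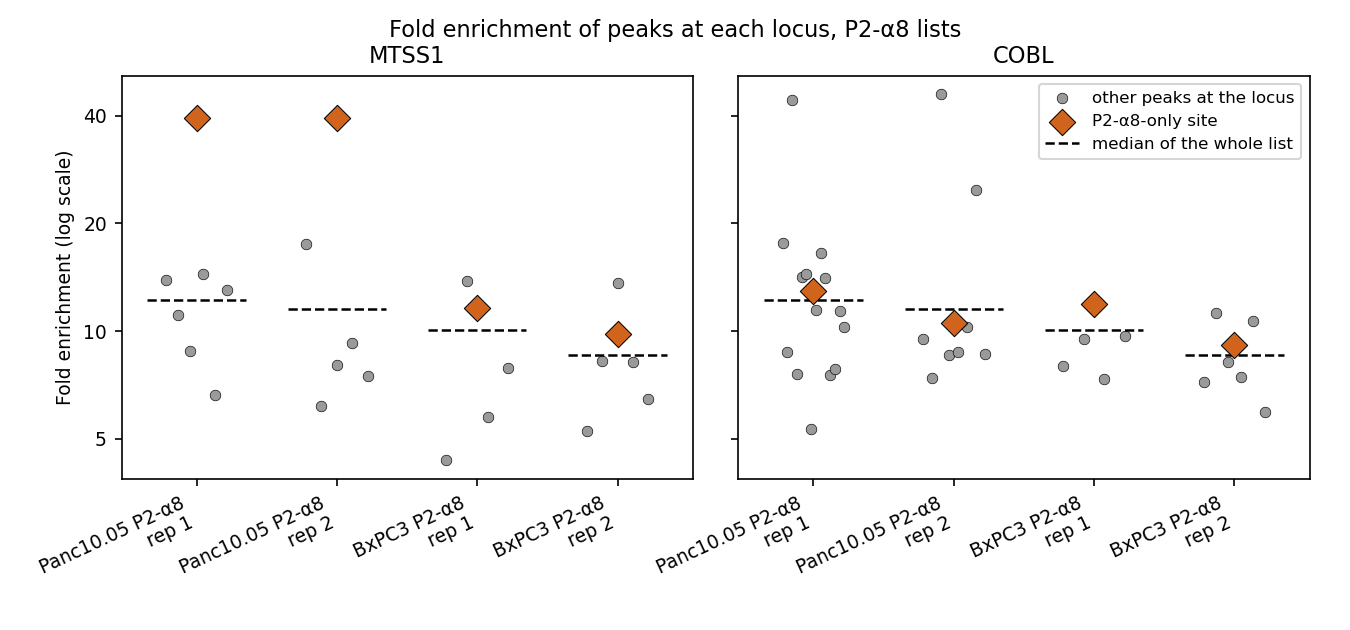
Fold enrichment (log axis) of every peak at MTSS1 and COBL in the 4 P2-α8 lists: diamonds are the P2-α8-only site, circles the other peaks at the locus, dashed lines the median of the whole list. The MTSS1 diamonds reach 39.5 in both Panc10.05 lists, and the COBL diamonds lie between 9.15 and 12.9 in all 4.

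Of the 34 sites, 13 had a peak in both induced lines, 10 had peaks in BxPC3 lists alone, and 9 in Panc10.05 lists alone. The other two were shared by Panc10.05 and AsPC1. A peak in 1 list alone made up 6 of the sites, 2 at MTSS1 and 4 at COBL. By position, 19 sites lay inside the genes, 7 of them in MTSS1 and 12 in COBL. Protein-coding genes of at least 150 kb had a median of 9 sites (quartiles 5 and 15), counted in the same way, against 14 at MTSS1 and 20 at COBL. Genes without a site were not left out of that class, whereas MTSS1 and COBL were chosen for a site that these counts include. Length was not matched further, and COBL spans 300598 bp. The MTSS1 site nearest to the marking site in BxPC3, chr8:124655332-124656108, was in all 4 BxPC3 lists, at percentiles 77.5 and 5.02 with P1-α2 and 0.237 and 4.58 with P2-α8, and in Panc10.05 P2-α8 replicate 2 at 16.9. Its fold enrichment was thus near the bottom of both P2-α8 lists.

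Counted over both loci, 6 of the 24 sites with a Panc10.05 peak were in both P2-α8 lists and neither P1-α2 list, beside 10.9% of all Panc10.05 regions, and 1 was in both P1-α2 lists and neither P2-α8 list, beside 3.63%. The single P1-α2-only site, chr7:51005134-51005626, lies 10.8 kb beyond the transcription stop end of COBL, at percentiles 12.3 and 66.7. In BxPC3, 2 of 23 sites were in both P2-α8 lists and neither P1-α2 list, beside 0.13% of all BxPC3 regions, and 7 were P1-α2-only, beside 28.3%. The 2 BxPC3 sites are the marking sites, and the 6 of Panc10.05 include them, so nothing is read from these shares. Without Panc10.05 P2-α8 replicate 2 the 6 sites became 12, and without BxPC3 P2-α8 replicate 2 the 7 became 11. At equal list length BxPC3 had 4 sites P2-α8-only, the 2 marking sites among them, and 0 P1-α2-only. Panc10.05 then had 4 sites P2-α8-only and 1 P1-α2-only. The shares of all regions at equal length were not computed, so these changes are not read as a trait of the loci. No site was P2-α8-only in one line and P1-α2-only in the other.

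Peak number at the loci moved in opposite directions in the induced lines. At COBL, P1-α2 had 7 and 8 peaks and P2-α8 had 15 and 9 in Panc10.05, whereas P1-α2 had 12 and 8 and P2-α8 had 5 and 7 in BxPC3. The groups overlapped at neither gene in either line. However, every P2-α8 count includes the marking site that chose the gene, and no P1-α2 count does. At COBL in Panc10.05, the gap between 9 peaks (P2-α8 replicate 2) and 8 (P1-α2 replicate 2) was no wider than that site. Across protein-coding genes, 27.1% had more peaks in both P2-α8 lists than in both P1-α2 lists in Panc10.05, and 67.4% had fewer in BxPC3, so the direction in BxPC3 is that of most genes. Relative to list length, the loci held 3.28 ± 0.492 (SD, n = 2) peaks per 10000 with P1-α2 and 5.04 ± 0.825 with P2-α8 in Panc10.05, and 4.88 ± 0.198 and 8.37 ± 0.692 in BxPC3, higher with P2-α8 in both lines. These values also count the marking sites, so part of the difference was fixed by the choice of genes. The share of all genes higher with P2-α8 by this measure was not computed.

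**Figure D4:**
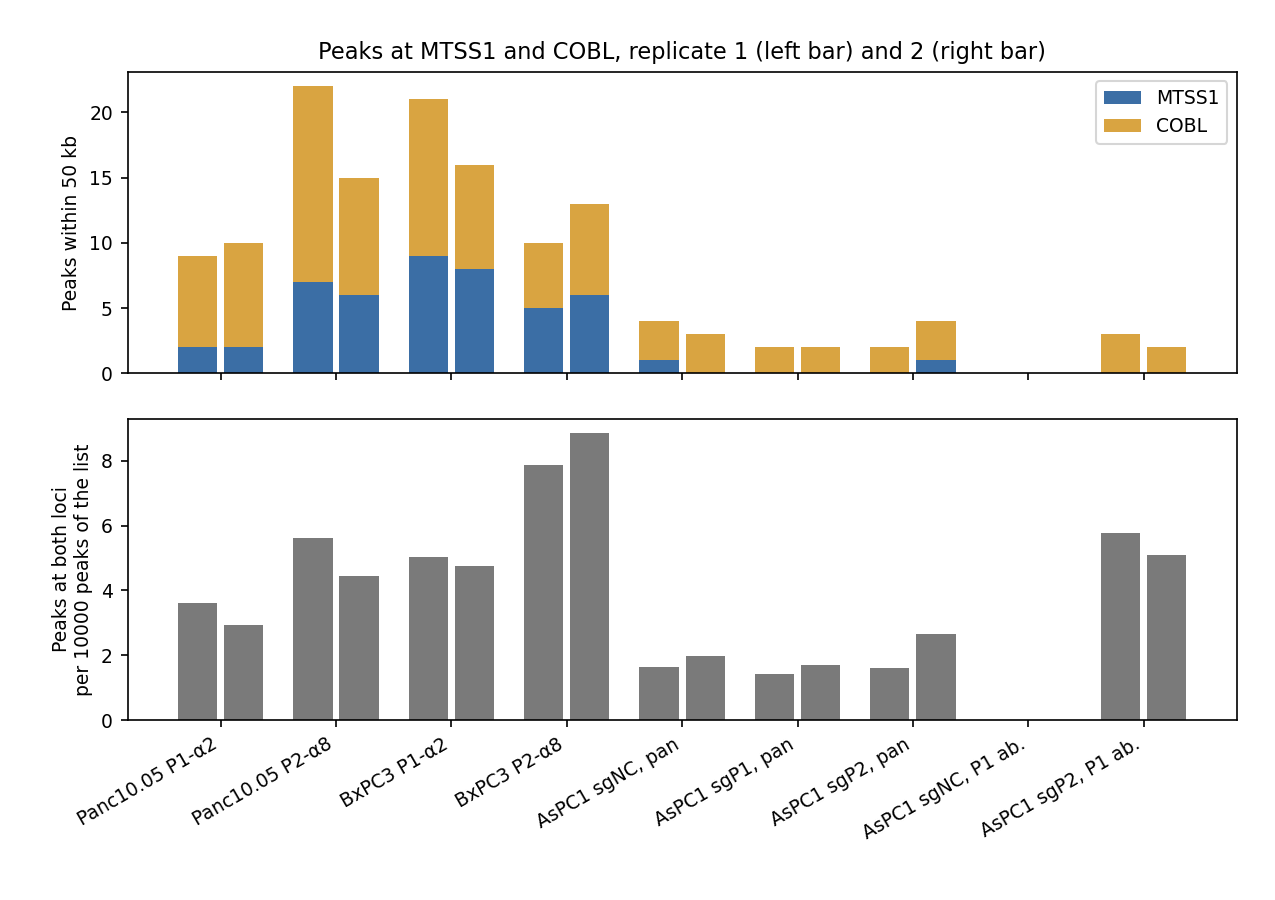
Number of peaks within 50 kb of MTSS1 and COBL in each library (top, stacked bars) and the same sum per 10000 peaks of the list (bottom); the left bar of a pair is replicate 1 and the right bar replicate 2. The 8 induced lists hold 9 to 22 peaks, the 6 AsPC1 pan-HNF4α lists 2 to 4, and the AsPC1 sgNC lists of the P1 antibody 0.

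In AsPC1, whose HNF4α is expressed from the endogenous gene, neither marking site had a peak in any of the 10 lists. The nearest AsPC1 pan-HNF4α peak lay 92.2 to 266 kb from the MTSS1 site and 118 to 184 kb from the COBL site. For comparison, of the 5628 regions found in all 8 induced lists, 66.0% had an AsPC1 peak, and of the 363 regions P1-α2-only in both lines, 43.8% did. Of the 34 sites, 5 had a peak in AsPC1, 1 at MTSS1 and 4 at COBL, and each of them was also bound in an induced line.

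The MTSS1 locus was nearly empty in AsPC1. Its single site, chr8:124538568-124539390, lies where the spans of TATDN1, a deoxyribonuclease family gene, and NDUFB9, a subunit of respiratory complex I, meet, 11.8 kb outside MTSS1. It was found in sgNC replicate 1 at percentile 19.8 and in sgP2 replicate 2 at 33.6, and in the 4 Panc10.05 lists at 14.9 and 40.5 with P1-α2 and 60.3 and 79.1 with P2-α8. The Panc10.05 groups did not overlap there, but how many of all regions separate in this way was not computed. BxPC3 had no peak at it.

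At COBL, the start site was in all 6 AsPC1 pan-HNF4α lists, a pattern of 26.8% of AsPC1 regions. Its percentiles were 90.1 and 87.9 in sgNC, 94.0 and 85.8 in sgP1, and 98.1 and 95.3 in sgP2. Here sgP2 lay above the other groups, a separation whose share over all regions was not computed, and sgP1 overlapped sgNC. The site 51.0 kb into the gene was also in all 6, at 62.3 and 51.7 in sgNC, 64.1 and 55.1 in sgP1, and 81.4 and 63.4 in sgP2, so that sgP2 overlapped sgP1. One COBL site, chr7:51208596-51209114, had a peak in sgNC replicate 1 (percentile 31.9) and replicate 2 (46.2) and in no sgP1 or sgP2 list, a pattern of 3.92% of AsPC1 regions. Panc10.05 P2-α8 replicate 1 was the single induced list with a peak there, at 61.8. A further site, chr7:51225110-51225658, was found in sgP2 replicate 2 alone among the AsPC1 lists, at percentile 15.6. This site was P1-α2-only in BxPC3, at 19.6 and 36.6, and was present in all 4 Panc10.05 lists.

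For the CRISPR interference guides, the quantity tested was the number of peaks at MTSS1 and COBL together. With the pan-HNF4α antibody, sgNC had 4 and 3 peaks, sgP1 had 2 and 2, and sgP2 had 2 and 4. The difference of sgP1 from sgNC was -1.5 (two-sided exact permutation p = 0.333, the smallest that 2 against 2 libraries allow, and 0.667 after Benjamini-Hochberg adjustment over 4 comparisons). Of protein-coding genes with a peak in these lists, 21.7% had fewer in both sgP1 than in both sgNC lists. At equal list length, and at a −log10 q of at least 20, the sgP1 difference was -0.5 (exact permutation p = 1.0 in each). The difference of sgP2 from sgNC was -0.5 and that of sgP1 from sgP2 was -1.0, with overlapping groups and an exact permutation p of 1.0 in each. The sgP2 difference changed sign, to 0.5, without sgP2 replicate 1, and was 0 without sgNC replicate 1. The sgP1 difference from sgP2 was 0 without sgP2 replicate 2.

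With the P1 antibody, sgNC had 0 and 0 peaks at the loci and sgP2 had 3 and 2, all at COBL. The difference of 2.5 had a two-sided exact permutation p of 0.333 (0.667 adjusted), again the smallest possible. Among genes with a peak in these lists, 54.8% had more in both sgP2 than in both sgNC lists, and the sgP2 lists were longer throughout. With all 4 lists cut to 260 peaks, the difference was 0.5 (exact permutation p = 1.0). The start site of COBL was in both sgP2 lists and in neither sgNC list, as were 36.5% of regions of this antibody. Its percentiles were 95.5 and 91.2, and its weaker second peak, at the summit printed in capitals above, had 13.3 and 4.28. The site 51.0 kb into the gene was found in sgP2 replicate 1 at 43.4 and not in replicate 2. In 5 of the 6 AsPC1 pan-HNF4α lists, 1 broad peak covered both positions.

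Other genes of the same families were read from lists of I-BAR proteins, WH2 actin nucleators and elongators, binding partners of COBL and MTSS1, and brush border proteins. Without MTSS1 and COBL, 14 of 33 genes had a site within 50 kb that was P2-α8-only in Panc10.05, beside 33.6% of all protein-coding genes (41.0% of genes of at least 150 kb, the class of MTSS1 and COBL). In BxPC3, 0 of 33 had such a site, beside 0.414% of all genes (1.13% of the long ones), and 20 had a P1-α2-only site, beside 56.1% (74.8%). Of the other 4 I-BAR genes, 2 had a Panc10.05 P2-α8-only site, BAIAP2 (an actin regulator) and BAIAP2L2. The BAIAP2 regions lay nearest to other genes, CHMP6 and AATK. Of 3 such regions at BAIAP2L2, chr22:38086141-38086909 had percentiles of 59.6 and 77.5 and was present in both BxPC3 P1-α2 lists. Of the other 7 WH2 genes, COBLL1 (the COBL paralogue) and JMY had such a site, and the COBLL1 region lay nearest to SLC38A11. The JMY site, chr5:79209497-79210147, stood at percentiles 90.3 and 73.5 and had no peak in any other list.

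Partners with a Panc10.05 P2-α8-only site were 4 of 8, beside 33.6% of all genes. They included the genes of the membrane-bending proteins PACSIN1, PACSIN2 and PACSIN3. These PACSIN genes each also had a Panc10.05 P1-α2-only site, as 3 of 8 partners did, beside 11.6% of all genes. Brush border genes with a Panc10.05 P2-α8-only site were 6 of 14, beside the 33.6% of all genes. A Panc10.05 P1-α2-only site was found at 2 of 14, beside 11.6%. In BxPC3, 0 of 14 had a P2-α8-only site, beside 0.414% of all genes, and 9 a P1-α2-only site, beside 56.1%. The 6 with a Panc10.05 P2-α8-only site included EZR, which links actin to membrane, EPS8L3 and the myosin gene MYO7B. The others were the adhesion-complex scaffolds USH1C and ANKS4B and the protocadherin gene CDHR2. For these last genes the regions lay nearest to another gene: OTOG for USH1C, ZP2 for ANKS4B, and FAF2 and GPRIN1 for CDHR2. The MYO7B sites had percentiles of 65.8 and 65.1 and of 70.1 and 58.2. The first MYO7B site also had a peak in BxPC3 P1-α2 replicate 1 (44.1), as did the EZR region (29.0). Both BxPC3 P1-α2 lists held the regions of EPS8L3 (82.5 and 22.2) and ANKS4B (55.3 and 74.9). The second MYO7B site and the regions of USH1C and CDHR2 had no BxPC3 peak.

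Likeness to each P2-α8-only site was the number of the 18 lists in which another region's presence agreed. For the MTSS1 and COBL marking sites, no region outside the 2 loci agreed in 18. That outcome was fixed in advance, because agreement in 18 requires the rule that chose the genes, which no other region met. Among the regions that agreed in 17, those with the smallest mean difference in percentile from the MTSS1 site lay near CORO2B (chr15:68485725-68486510), FAM169A (chr5:74876092-74876917) and CRH (chr8:66190589-66191307). The CORO2B region had percentiles 98.1 and 97.3 in Panc10.05 P2-α8 and 61.6 in BxPC3 P2-α8 replicate 2, and lacked a peak in replicate 1. FAM169A and CRH each had a peak in Panc10.05 P1-α2 replicate 2 as well. Those most like the COBL site were inside TAL1 (chr1:47216226-47216693), near SEM1 (chr7:96426697-96427097) and inside LOC112267908 (chr3:125810401-125810984), each with a peak in 1 BxPC3 P1-α2 list as well.

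The other 4 sites that were P2-α8-only in Panc10.05 had patterns shared by many regions. The MTSS1 site at chr8:124600516-124600917 had the same presence in all 18 lists as 3101 regions, and the most alike had LTAP1, EIF3A and SAMD5 as nearest genes. The MTSS1 site 13.5 kb from the start of transcription matched 200 regions, led by those nearest to DNAJC5, FER1L6 and ZFP64. The COBL site chr7:50980134-50980569 had percentiles of 75.5 and 31.8 in Panc10.05 P2-α8. It ranked 2 of the 15 COBL peaks in replicate 1 and 5 of 9 in replicate 2. In BxPC3 it was present in both P1-α2 lists, at 50.2 and 16.4, and in P2-α8 replicate 2 at 27.7. Its pattern was shared with 200 regions, led by those nearest to PRKCH, SLIT3 and USP24. At chr7:51340191-51340781, 23.6 kb before COBL, 30 regions matched, led by those nearest to PTPRU, ALX1 and PHF20. The nearest gene can be far, up to 498 kb for USP24.

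The 50 kb limit fell in gaps between peaks. At MTSS1 the outermost summits inside it were 15.5 and 46.0 kb from the gene and the first ones outside 59.2 and 52.9 kb. At COBL they were 36.0 and 42.7 kb inside and 53.0 and 50.9 kb outside. The 4 regions just outside were each in 3 to 9 lists.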

How the data were processed

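Peak lists of 18 immunoprecipitated libraries were used, and the 14 input libraries were not analysed here. The submitters' processing notes name Bowtie2 2.2.9, MACS2 2.2.7 and the builds hg38 and mm10, with no role given. Each deposited list holds 1 library. The fold enrichment in these lists is a linear ratio that the authors computed for each peak before deposit. The p- and q-values were deposited by the authors as −log10 values. The integer score deposited beside them was not used. The control used for calling and the read depth are not given in the sources used here.

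Overlapping peaks (at least 1 bp) of the 18 lists were merged into regions with Python 3.11.15 and pandas 2.3.3. The code was tested on simulated data and differed from bedtools 2.31.1 in 0 of 78729 regions. Gene spans came from RefSeq GRCh38.p14. Percentiles rank fold enrichment within a list. Where a list had several peaks in a region, the strongest counts. Groups follow the labels' cell line, genotype and antibody. AsPC1 differences were tested by two-sided exact permutation with Benjamini-Hochberg adjustment over 4 comparisons.

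MTSS1, COBL, the gene lists and the tests were chosen with earlier results of these data known. The naming rule covered the sites at both genes, protein-coding genes overlapping the flanks and listed genes with a P2-α8-only site in a line. It also covered the 3 regions most like each P2-α8-only site of MTSS1 or COBL (most lists of 18 agreeing, then the smallest mean difference of percentile). Not every site at the 2 genes is described in the text, and most BxPC3 P1-α2-only sites are given only as a count. A listed gene is not reported here by name.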

Additional observations from a re-analysis of the deposited data

Results flagged for a closer look

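Peak number at each gene moved in opposite directions between isoforms in the induced lines, with every P2-α8 library above every P1-α2 library in Panc10.05 and below in BxPC3. Every P2-α8 count includes the marking site that chose the gene, and no P1-α2 count does. For COBL in Panc10.05, the groups were separated by no more than that site. At MTSS1 the difference, P2-α8 minus P1-α2, was 4.5 peaks in Panc10.05 (means 6.5 and 2.0) and -3.0 in BxPC3 (5.5 and 8.5). At COBL it was 4.5 in Panc10.05 (12 and 7.5) and -4.0 in BxPC3 (6.0 and 10.0). The difference between the lines was not tested. Of 18569 protein-coding genes with a peak in these lists, 16.9% had the same opposite pattern. List length moved the same way, with mean peak numbers of 29487 (P1-α2) and 36379 (P2-α8) in Panc10.05 and 37773 and 13674 in BxPC3, and its part in the result was not tested beyond the values per 10000 peaks given above.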

How the results depend on the processing

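The MTSS1 and COBL marking sites stayed P2-α8-only in both lines at a −log10 q of at least 20 and at equal length by fold. The other 9 settings run for them (a −log10 q of at least 8, single libraries omitted) could not have changed this. These settings, like the genome-wide count, were chosen after seeing the data. That count, 2, was 35 at equal length and ranged over 2 to 40 with single libraries omitted. The Panc10.05 P2-α8-only sites (6) ranged over 6 to 12 and the P1-α2-only site (1) over 1 to 1 with single libraries omitted, which relaxes the rule. The P2-α8-only sites fell to 4 at equal length, at a −log10 q of at least 20, and with summits within 10 kb or inside the gene. The P1-α2-only site was 0 at a −log10 q of at least 20 and with summits within 10 kb or inside the gene. In BxPC3, equal length gave 4 P2-α8-only sites (from 2) and 0 P1-α2-only sites (from 7), and summits within 10 kb or inside the gene gave 4 of the latter. Leaving out a library gave 2 to 3 and 7 to 11. Equal length forces the lists of both isoforms to the same number of peaks. The shares of all regions at equal length were not computed, and no cause was tested.

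The sgP2 difference from sgNC (-0.5) was 0.0 at a −log10 q of at least 20 and at equal length, reversed to 0.318 per 10000 peaks of the list, and ran from -1.5 to 0.5 with single libraries omitted, reversing without sgP2 replicate 1 (0.5). Leaving out a library gave -2.0 to -1.0 for sgP1 minus sgNC, -2.0 to 0.0 for sgP1 minus sgP2, and 2.0 to 3.0 for the P1 antibody. At equal length these differences were -0.5, -0.5 and 0.5, with an exact permutation p of 1.0 in each, and at a −log10 q of at least 20 they were -0.5, -0.5 and 1.0. Per 10000 peaks of the list, sgP1 minus sgNC was -0.247, and with summits within 100 kb it was -3.5. With a replicate block the differences were the same, -1.5, -0.5, -1.0 and 2.5, with exact permutation p-values that cannot go below 0.5. The labels do not tie replicate numbers to a batch or day, and same-numbered libraries had correlations of deviations from -0.069 to 0.067, so they were not taken as pairs. By −log10 p in place of fold, the COBL site in Panc10.05 had a mean percentile of 38.1 (from 48.0). Unknown depth limits every absence of a peak.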
